A study of Mus musculus with 21 samples.

Results

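Open chromatin was compared between endothelial cells of the mouse brain, which form the blood-brain barrier, and of the mouse lung, which line the capillaries of gas exchange. The comparison took 8 ATAC-seq libraries, 4 of brain and 4 of lung, out of 21 samples in a series that also holds liver ATAC-seq, bulk RNA and single-cell RNA. All cells came from C57BL/6J mice aged 2 to 4 months, with no genetic change or treatment named in the labels. Per the labels' protocols, mice were perfused, whole organs were digested with collagenase, dispase and DNase, and live cells with CD31 and without PDGFRβ and CD45 were sorted. Brain suspensions alone were spun through albumin to remove myelin. The sort takes arterial, capillary and venous cells together. How many animals went into a library, and their sex, is not stated in the labels. The labels do not say that libraries came from separate animals either, and every p-value therefore covers only library-to-library spread, which could be technical.

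ATAC-seq uses a transposase that cuts into DNA where nucleosomes are sparse, so reads pile up at promoters and enhancers that proteins occupy. Promoters of broadly used genes tend to be open in every cell type, and enhancers far from genes carry much of what sets one cell type apart from another. Endothelial cells share a core program and add to it in each organ: brain cells build tight junctions and nutrient carriers under Wnt signalling, and lung cells adapt to thin walls and gas exchange. The values here are read counts over 60119 peaks, that is, intervals listed as open chromatin in 1 merged list. Peak positions are in mm9, counted from 1, and the gene tables at hand are of another build. For that reason peaks are named by position and not by gene, no sequence is printed, and the sorted cell type could not be checked against marker genes.

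The brain libraries held 5003580 to 17956240 counts in peaks and the lung libraries 1244653 to 6046832. A pair of lung libraries whose table names carry no usable number, called a and b here, held 1335711 and 1244653 counts. Lung means give each of the 4 libraries the same weight. Pearson correlations of log2 CPM (counts scaled to effective library size by TMM) across tested peaks were 0.930 to 0.960 among brain libraries, 0.780 to 0.948 among lung libraries and 0.639 to 0.740 between the tissues. The lowest value within lung, between the shallow libraries a and b, lay above the highest value across tissues. The median SD of a peak's log2 CPM was 0.38 over the brain libraries and 0.48 over the lung libraries. Between lung 1 and lung 2 it was 0.25, and between lung a and b 0.41. No 2 libraries of a tissue agreed within sampling noise.

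**Figure D1:**
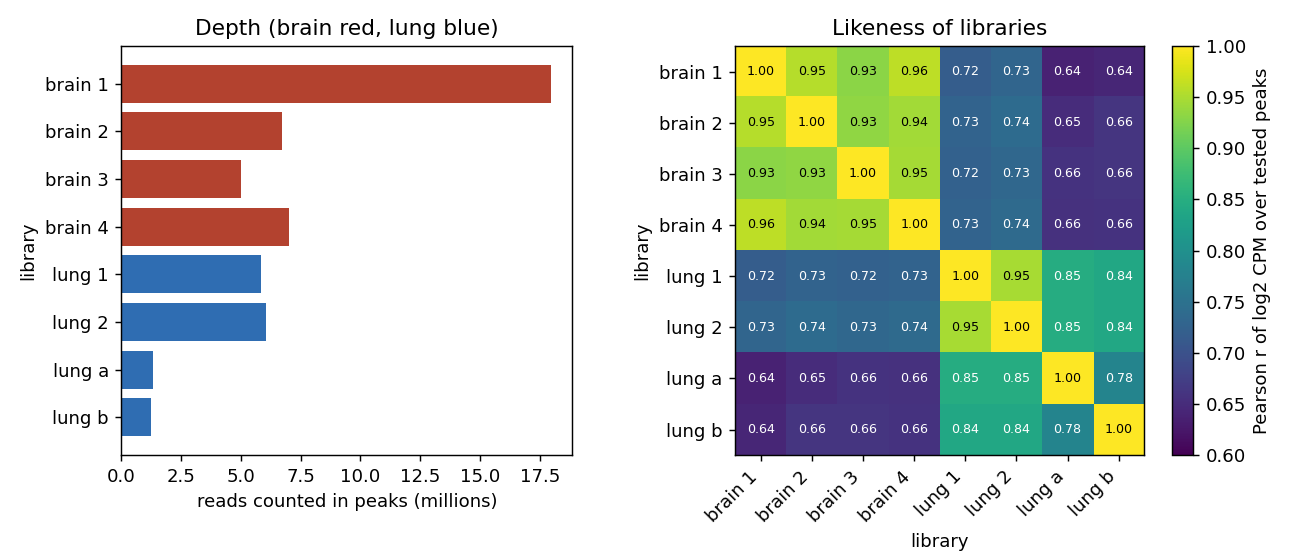
Reads counted in peaks per library (left, brain red, lung blue) and Pearson correlation of log2 CPM across tested peaks for each pair of libraries (right). Brain 1 is the deepest library, lung a and lung b are the shallowest, and each library correlates more with every library of its own tissue than with any of the other.

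About 1 in 3 peaks differed between the tissues, in both directions and by large folds. Of 52790 peaks with enough counts to test, 9187 were called higher in brain (17.4% of those tested) and 7727 lower (14.6%), by the edgeR quasi-likelihood test at a Benjamini-Hochberg adjusted p under 0.05 and at least a 2-fold difference. Which direction had more calls depended on the setting: there were 7447 higher and 8273 lower with scaling by library size alone, 8756 and 9194 with the liver libraries in the fit, and 8967 and 9175 without brain 2. Calls of either direction made up 32.0% of the peaks tested, and 38.6% passed on the adjusted p alone. The median log2 fold change, brain minus lung, was 1.82 among peaks called higher and −1.78 among peaks called lower, against 0.01 over all tested peaks. In bulk libraries, a region open in more cells and a region cut more often in each cell cannot be told apart.

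Large folds were more frequent on the brain side. Of the peaks called higher in brain, 3744 (40.8%) differed at least 4-fold, 1078 (11.7%) at least 8-fold and 212 (2.31%) at least 16-fold. Of the peaks called lower, 2912 (37.7%) differed at least 4-fold, 707 (9.15%) at least 8-fold and 68 (0.88%) at least 16-fold. The difference between the directions was not tested, nor was the part of the shallower lung libraries in it. The median peak called higher in brain had 47 lung counts over the 4 libraries together, and the median peak called lower had 68 brain counts. Called peaks without any read in a tissue were rare, at 36656359 counts in peaks for brain and 14484959 for lung. How far depth sets this was not tested. A single called peak had 0 counts in all lung libraries, and 0 peaks called lower had 0 counts in all brain libraries.

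That single peak, on the X chromosome at chrX:14232651-14233086, was chosen after its values were seen. It had 136, 52, 73 and 123 counts in brain 1 to 4, which is 12.98 ± 6.21 CPM (SD, n = 4), and 0 counts in each lung library. Against a floor of 3 counts over the lung libraries together, brain was at least 65.2-fold higher, a bound that covers counting error only (edgeR adjusted p = 1.16e-15). Every brain library had at least 52 reads there, and the lung libraries had none. The liver libraries had 1, 6 and 16 counts there.

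For 8217 of the peaks called higher (89.4%) and 5921 of those called lower (76.6%), the brain and lung libraries did not overlap. Over all tested peaks that was the case for 33.9%, with 19.8% higher and 14.2% lower in every brain library. Since the same libraries gave the calls, these shares are no separate support. With the 4 brain libraries set against lung 1 and 2 alone, 90.3% of the peaks called higher and 86.8% of those called lower were called again. Against the shallow lung a and b alone, it was 76.0% and 58.6%, and in neither case was a peak called in the opposite direction. Both fits reuse libraries that gave the calls, so they are no separate support either.

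**Figure D2:**
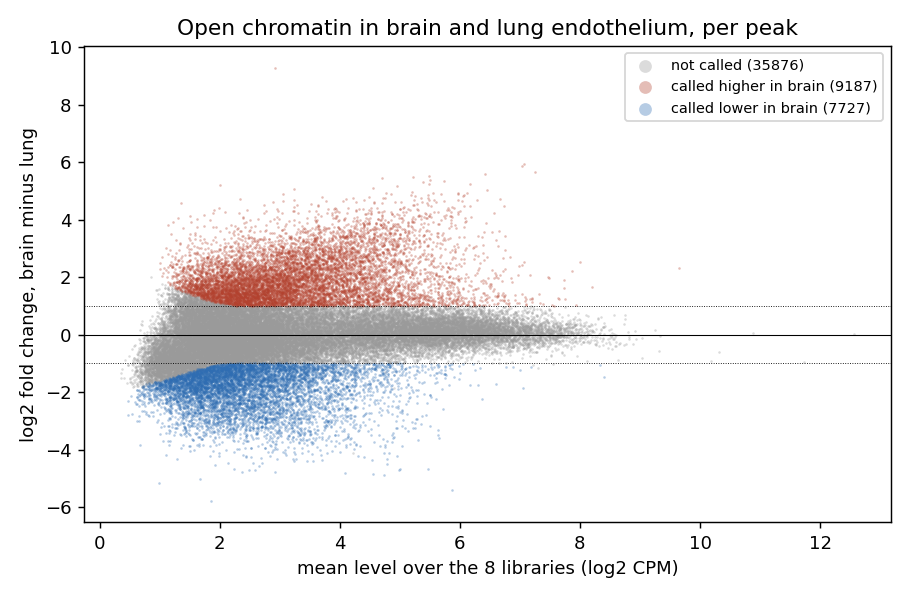
Each point is a tested peak. The horizontal axis gives its mean level over the 8 libraries (edgeR's average log2 CPM). The vertical axis gives the log2 fold change of brain minus lung. Dotted lines mark a 2-fold difference. The 9187 peaks called higher in brain reach further up and to higher levels than the 7727 called lower reach down, and peaks of the highest levels lie near 0.

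Peaks with the largest folds on the brain side had few reads in lung, which follows in part from choosing them by fold. The 10 with the largest fold among peaks of at least moderate level (mean log2 CPM of at least 3) and without overlap between libraries lay on chromosomes 3, 6, 12, 13, 16 and X. Their log2 fold changes ran from 5.29 to 5.91 with standard errors of 0.32 to 0.36 (edgeR, largest adjusted p = 7.17e-24), and their widths from 624 to 1447 bases.

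The first of them, chr13:26792402-26793848, had 246, 225, 305 and 259 CPM in brain 1 to 4 and 3.41, 4.15, 7.10 and 3.73 in lung 1, 2, a and b. Every brain library stood far above every lung library, and the log2 fold change was 5.91 (SE 0.33, edgeR adjusted p = 5.49e-28). The second peak by fold, chr3:73477010-73477838, had 215, 186, 331 and 276 CPM in brain and 2.33, 4.302, 5.68 and 7.46 in lung. Its brain values spread more, with brain 3 highest, and still lay well clear of lung (log2 fold change 5.88, SE 0.34, edgeR adjusted p = 2.19e-27). At chr6:66310665-66311979, brain had 257, 244, 359 and 313 CPM and lung 6.28, 5.79, 7.10 and 2.98. At chr12:42001398-42002339, brain had 158, 123, 203 and 173 CPM and lung 2.33, 4.15, 2.84 and 4.48. These 4 peaks were also those with the smallest p-values among peaks called higher.

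Brain 3 was the highest brain library in these 4 peaks, and brain 2 the lowest. A peak on chromosome X, chrX:55509043-55510143, had 86.6, 64.1, 99.3 and 83.9 CPM in brain and 1.44, 1.93, 1.42 and 2.98 in lung (log2 fold change 5.51, SE 0.33, edgeR adjusted p = 1.73e-26). The 5 others had 47.3 to 100.9 CPM as the mean of brain and 1.19 to 2.07 as the mean of lung. In 3 of these, 1 of the shallow lung libraries had 0 counts, namely chr13:26684106-26684806, chr13:31461416-31462422 and chr12:40753450-40754213. The remaining members were chr6:36758311-36758934 and chr16:63752580-63753400. Chromosome 13 held 3 of the 10 peaks, a pair of them only 107.6 kb apart.

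Peaks with the largest folds on the lung side were of the same kind, chosen in the same way, with smaller folds. The 10 largest ran from −4.39 to −5.42 on the log2 scale with standard errors of 0.29 to 0.51 (edgeR, largest adjusted p = 5.92e-06) and widths of 461 to 1166 bases. They lay on chromosomes 2, 3, 5, 6, 8, 15 and 17, and chromosome 8 held 3 of them.

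The largest fold was that of chr8:123399902-123401067, at 171, 101.2, 88.7 and 104 CPM in lung 1, 2, a and b and 0.772, 3.24, 5.63 and 2.65 in brain 1 to 4. Lung 1 was highest and all lung libraries lay far above brain (log2 fold change −5.42, SE 0.36, edgeR adjusted p = 1.03e-15). A neighbour 44.7 kb away, chr8:123354449-123355162, had 92.0, 61.7, 26.3 and 70.9 CPM in lung and 1.74, 2.97, 3.03 and 2.65 in brain (log2 fold change −4.67, SE 0.30, edgeR adjusted p = 2.39e-23). In this one the shallow lung a was clearly the lowest of the 4. The third on this chromosome, chr8:40952398-40952944, lay far from both and had 31.9, 35.6, 46.1 and 26.9 CPM in lung and 1.29, 1.48, 2.16 and 0 in brain.

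Chromosome 5 held a pair that differed in how tight the brain values were. At chr5:119914473-119915117, lung had 56.1, 42.6, 44.7 and 46.2 CPM and brain 1.16, 2.16, 3.03 and 0.662, and the p-value was the smallest of all peaks called lower (log2 fold change −4.85, SE 0.31, edgeR adjusted p = 6.47e-25). At chr5:65486133-65486941, lung had 77.0, 53.5, 49.7 and 35.1 CPM and brain 0.579, 5.53, 3.03 and 1.32. Here the log2 fold change was nearly as large, at −4.49, and the standard error was larger, at 0.51 (edgeR adjusted p = 5.92e-06), and brain 1 and brain 2 stood far apart. Among the rest, chr15:53679839-53680540 had the second smallest p-value, with 114, 65.1, 95.8 and 73.8 CPM in lung and 1.67, 3.37, 6.06 and 3.64 in brain. It was followed by a peak outside the 10, chr5:40435948-40437015, with 68.0, 59.0, 49.7 and 66.4 CPM in lung and 2.32, 5.53, 3.68 and 1.65 in brain (log2 fold change −4.23, SE 0.28, edgeR adjusted p = 9.59e-24).

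**Figure D3:**
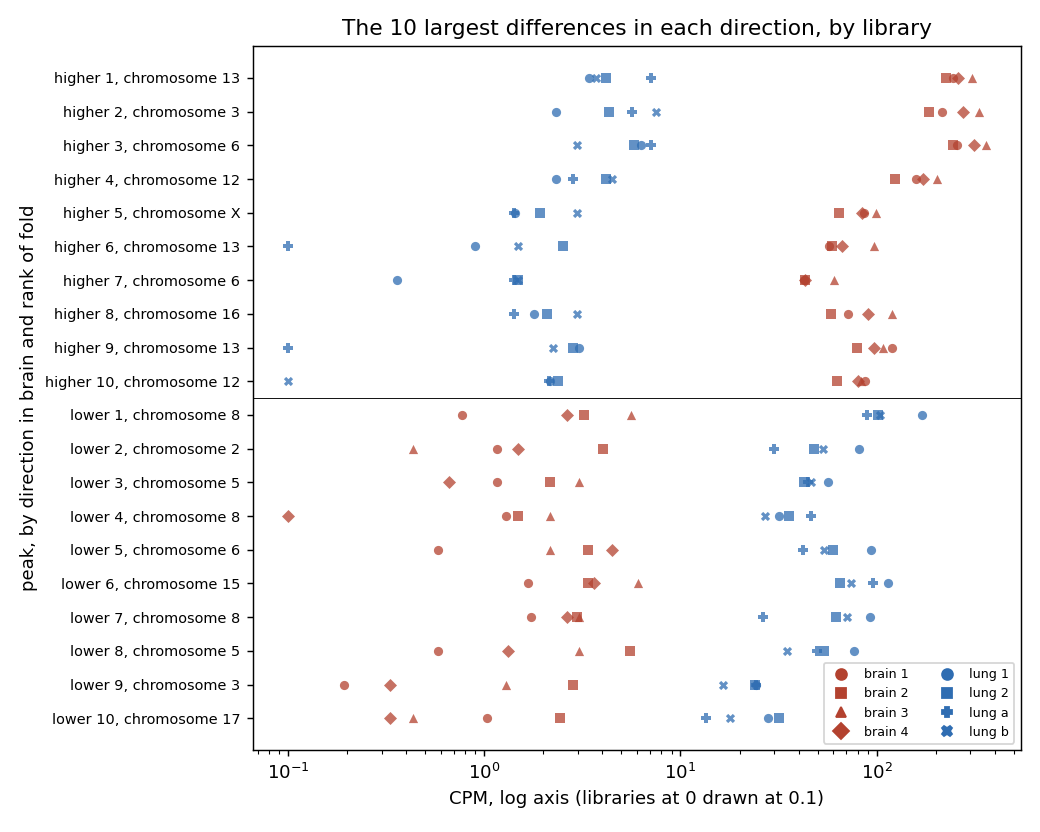
CPM on a log axis in each brain (red) and lung (blue) library for the 10 named peaks of largest difference, higher and lower in brain, 1 row per peak, marker shapes giving the library. Brain libraries sit above lung libraries in the upper 10 rows and below them in the lower 10, without overlap, and libraries with 0 counts are drawn at 0.1.

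Whether a peak differed went with its width and its level. Wide, strong peaks were mostly alike, the narrowest peaks were more often called lower in brain than higher, and the share called higher was largest in peaks next to the widest and next to the strongest. For 14154 peaks (26.8%), the 95% interval of the fold change lay within 2-fold in either direction, and the median width of these peaks was 682 bases. Peaks called higher had a median width of 517 bases and peaks called lower of 391, against 446 over all tested peaks. The other 21722 peaks were neither called nor shown to be alike.

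Peaks were split into 5 groups of equal size by width and by level. Level is edgeR's average log2 CPM, not a plain mean over libraries, and deeper libraries weigh more in it at low counts. The unequal depth of the tissues can therefore enter the grouping by level itself. In the narrowest group, up to 302 bases, 8.12% were called higher in brain and 18.6% lower. In the next to widest, 514 to 729 bases, it was 26.6% and 13.4%, and in the widest, from 729 bases up, 17.3% and 4.95%. The interval lay within 2-fold for 59.6% of the widest group and for 6.12% of the narrowest. By level, 28.8% of peaks in the next to highest group (mean log2 CPM of 3.20 to 4.603) were called higher and 13.01% lower, against 12.9% and 2.75% in the highest. In the lowest, with the fewest counts, 5.69% were called higher and 17.5% lower. Level and width go together. Within the middle group by level, 11.99% of its narrowest peaks were called higher, 35.2% of its next to widest and 22.1% of its widest. In the next to highest level group these shares were 6.52%, 33.7% and 33.8%, with no drop in the widest. The share called lower changed with width in different ways by level. It was 17.6% in the narrowest and 22.9% in the widest peaks of the middle level group, and 20.4% and 33.0% in the group below it. These widest sets held only 271 and 91 peaks. In the next to highest level group it was 9.78% in the narrowest, 14.3% in the middle and 11.04% in the widest peaks. In the highest it was 0% in the narrowest (10 peaks), 4.27% in the next to widest and 2.24% in the widest (7901 peaks). In the lowest it was 17.8% in the narrowest and 14.3% in the widest (21 peaks). Whether the unequal depth of the tissues sets part of this pattern was not tested.

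**Figure D4:**
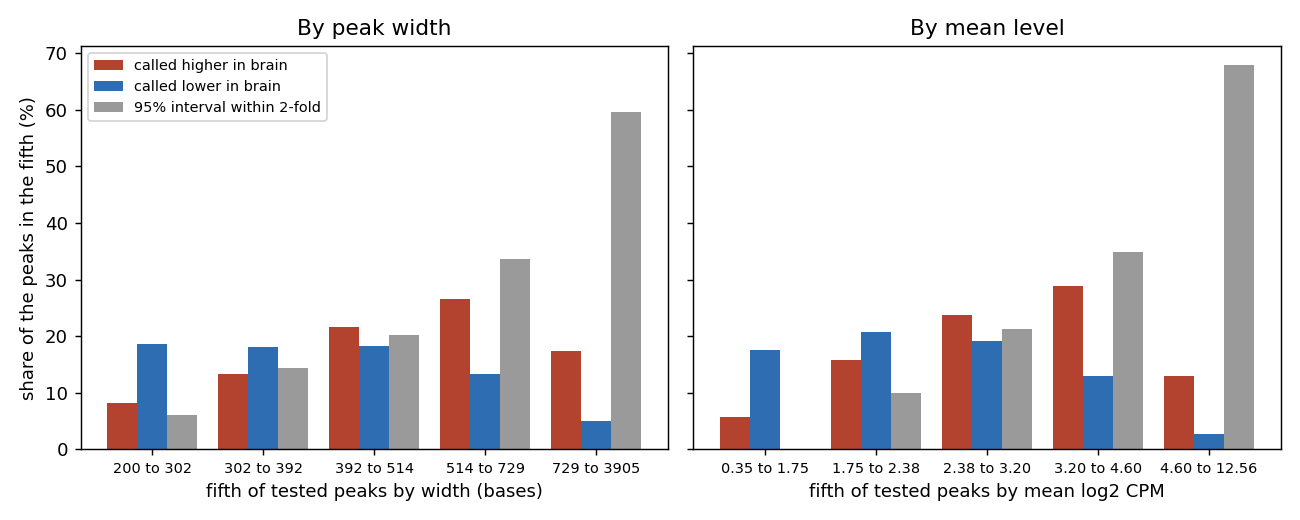
Share of tested peaks called higher in brain (red), called lower (blue) or with a 95% interval of the fold change within 2-fold (grey). The 5 groups are by peak width in bases (left) and by mean level, edgeR's average log2 CPM (right). The grey share rises to 59.6% in the widest and 67.9% in the strongest group.

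The widest called peak on the brain side, chr9:95305824-95308216, spanned 2393 bases and had 121, 82.6, 126 and 123 CPM in brain against 58.8, 48.4, 51.8 and 41.0 in lung. Its log2 fold change was 1.17 (SE 0.24, edgeR adjusted p = 2.97e-05), which fell below 2-fold with scaling by library size alone (0.98), with a loess trend removed (0.99), with a stricter count filter (0.96), after thinning (0.97) and with a replicate block on libraries 1 and 2 (0.90). On those libraries without the block it did not pass (0.91, edgeR adjusted p = 0.0705), nor did it in the minimum-fold test (edgeR adjusted p = 0.343). The widest on the lung side, chr1:46909523-46911241, spanned 1719 bases and had 542, 324, 620 and 509 CPM in lung against 182, 128, 194 and 205 in brain (log2 fold change −1.49, SE 0.27, edgeR adjusted p = 2.16e-06). It missed the minimum-fold test (edgeR adjusted p = 0.0527). Neither pair of groups overlapped, and both peaks were well open in both tissues.

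Among peaks not called, the strongest was chr17:39980001-39983905, which is also the widest of the table, with 5693, 5778, 6677 and 6150 CPM in brain and 6596, 4351, 5954 and 7097 in lung. The groups overlapped and the log2 fold change was 0.02, with a 95% interval of −0.66 to 0.69. Its neighbour chr17:39984387-39985734 also overlapped, at 0.06 (interval −0.54 to 0.66), as did a peak of 3109 bases on an unplaced piece of chromosome 9 (−0.05, interval −0.60 to 0.51). A pair of peaks 3.24 kb apart on chromosome 2 stood near the threshold. They were chr2:98506374-98507519, at −0.97 (SE 0.34, edgeR adjusted p = 0.0169), and chr2:98502381-98503132, at −0.92 (SE 0.31, edgeR adjusted p = 0.0107). At the first, brain 1 to 4 had 1303, 3471, 2614 and 1748 CPM and lung 1, 2, a and b 2520, 3365, 5203 and 6819. The shallow lung libraries were the highest in each. The first stayed uncalled in 14 of 22 alternatives and the second in 15 of 22. Both were called without brain 2 (−1.23 and −1.16), brain 3 (−1.10 and −1.04), lung 1 (−1.16 and −1.09) or lung 2 (−1.08 and −1.03). They were also called with a stricter count filter (−1.18 and −1.13), and both passed 2-fold after thinning (−1.15 and −1.13). Without lung b they were at −0.68 and −0.71 (edgeR adjusted p = 0.191 and 0.115), and with lung 1 and 2 alone at −0.44 and −0.46 (edgeR adjusted p = 0.575 and 0.481). The last of the 6, chr1:24619209-24620328, had a log2 fold change of −0.61 (interval −1.20 to −0.02). No peak was left out of the comparison for lying in repeated sequence. Whether the counts of these 6 peaks reflect open chromatin was not tested.

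Calls were unevenly spread over the chromosomes. On the X chromosome, 27.9% of 1077 tested peaks were called higher in brain and 8.36% lower, so that 77.0% of its calls were higher, against 54.3% over all peaks. Chromosome 13 came next, with 22.6% of 2432 peaks called higher and 10.4% lower. At the other end stood chromosome 11, with 12.6% higher and 16.2% lower, and chromosomes 7 and 17, with 13.3% and 13.4% higher. The share on X was 27.3% against lung 1 and 2 alone. When all libraries were thinned to the depth of the shallowest, 18.5% of X peaks were called higher and 6.83% lower, against 17.2% and 12.9% of all peaks tested in that setting. The share of X calls that were higher was then 73.0%, against 57.1% over all peaks.

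Reads on X were also taken as a share of each library. Peaks of the X chromosome took 2.21%, 1.95%, 2.40% and 2.46% of the counts in tested peaks in brain 1 to 4, and 2.03%, 1.83%, 2.31% and 2.06% in lung 1, 2, a and b. These ranges overlapped, and the means of 2.26% ± 0.23 and 2.06% ± 0.20 (SD, n = 4) differed by less than an exact permutation test could call (two-sided p = 0.229, adjusted 0.386 over 3 shares, smallest possible 0.0286). Peaks of the Y chromosome had 66.4 to 87.6 CPM in the brain libraries and 23.3 to 61.5 in the lung libraries, without overlap, here per total counts of the library and without TMM scaling. The part of the animals' sex in the X result was not tested.

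The concentration of counts was compared with the same exact test, and no difference passed it. The 1000 strongest peaks took 19.7% ± 2.58 of the counts in brain and 21.5% ± 2.34 in lung (SD, n = 4, exact two-sided p = 0.257, adjusted 0.386). The widest of the 5 width groups took 65.1% ± 3.71 and 63.4% ± 1.87 (exact p = 0.429, also after adjustment). Differences of these sizes could not be told from the spread among 4 libraries a tissue.

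Peaks called the same way lay near each other. Where a peak called higher in brain was followed by another tested peak within 1 kb, that next peak was also called higher in 47.6% of cases and lower in 4.68%. With a gap of 10 to 50 kb it was 32.8% and 7.42%, and over 100 kb 27.3% and 11.4%, against 17.4% and 14.6% of all tested peaks. Peaks called lower behaved alike: the next peak within 1 kb was also lower in 42.1% of cases and higher in 3.77%, and over 100 kb away in 23.6% and 12.7%. Neighbouring peaks can share reads from 1 open region, and these shares are a description with no test.

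Runs of such neighbours marked whole regions. A stretch is counted here as at least 5 tested peaks in a row on a chromosome, all called in the same direction and with gaps of at most 100 kb. There were 157 stretches higher in brain, holding 970 peaks (10.6% of those called higher), and 71 lower, holding 453 (5.86%). Their median span was 68.0 kb and 63.8 kb. After thinning of all libraries to the shallowest, 34 and 18 stretches were counted over the 23186 peaks then tested, and whether they lie within the 157 and 71 was not tested.

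The longest stretch covered 514.1 kb of chromosome 13, chr13:26362349-26876467, with 21 peaks in a row higher in brain. Their log2 fold changes ran from 1.49 to 5.91 with a median of 3.14, and brain and lung libraries did not overlap in any of the 21. Among all peaks called higher that held for 89.4%. The same libraries gave the calls, so such counts are no separate support for a stretch. Summed over the 21 peaks, brain 1 to 4 had 595, 640, 911 and 713 CPM and lung 1, 2, a and b 40.5, 53.7, 40.5 and 48.5. The stretch includes the peak with the largest fold of all those named higher, and a second of the 10.

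On the X chromosome, chrX:55173204-55356490 held 14 peaks in a row over 183.3 kb with a median log2 fold change of 3.45. Brain libraries summed to 395, 292, 388 and 408 CPM and lung libraries to 23.3, 20.9, 47.6 and 41.8, without overlap in any of the peaks. Its strongest peak, chrX:55283352-55284418, had a log2 fold change of 4.14 (SE 0.30, edgeR adjusted p = 1.49e-21). That peak lay 224.6 kb from chrX:55509043-55510143, the X peak of the 10 largest, which itself lies outside the stretch.

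The third, on chromosome 12, was chr12:41941621-42288413, also of 14 peaks over 346.8 kb, with a median of 2.44 and sums of 385, 348, 472 and 425 CPM in brain against 54.5, 56.8, 53.9 and 63.4 in lung. The fourth and the fifth were chr14:61603675-61704540, with 13 peaks and a median of 1.73, and chr2:139439168-139604371, with 12 peaks and a median of 1.99. In these the libraries did not overlap in 9 of the 13 and 10 of the 12 peaks, against 89.4% of all peaks called higher. Folds were thus smaller in the fourth and the fifth than in the first 3, and the summed values of the tissues still stood apart.

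On the other side, the longest stretches lower in brain held fewer peaks than the longest higher ones, while the median stretch had 6 peaks against 5. The first, chr4:148274648-148450536, held 11 peaks over 175.9 kb with log2 fold changes of −1.65 to −3.61 and a median of −2.74. Libraries overlapped in none of them, and 76.6% of all peaks called lower had no overlap. Over the stretch, lung 1, 2, a and b summed to 368, 268, 209 and 269 CPM and brain 1 to 4 to 46.0, 63.7, 49.98 and 46.0. Its strongest peak, chr4:148299997-148301093, had the largest fold of the stretch (−3.61, SE 0.27, edgeR adjusted p = 1.54e-20).

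The next was chr17:31518419-31629772, with 10 peaks, a median of −2.77, and sums of 113, 94.9, 93.7 and 104 CPM in lung against 14.2, 31.2, 19.5 and 11.2 in brain. Its peak of highest level, chr17:31570819-31571584, was its weakest difference: brain had 6.11, 11.6, 5.19 and 4.47 CPM, lung 18.5, 9.64, 17.7 and 13.4, and the groups overlapped (log2 fold change −1.08, SE 0.30, edgeR adjusted p = 0.00236). Leaving out brain 1, brain 4, lung 1 or lung a took it under 2-fold (−0.99, −0.91, −0.89 and −0.99). The call was lost with a replicate block on libraries 1 and 2 (−0.69, edgeR adjusted p = 0.153), on the same libraries without it (−0.68, edgeR adjusted p = 0.123) and in the minimum-fold test (edgeR adjusted p = 0.54). By contrast chr6:117940760-118027781, with 10 peaks over 87.0 kb and a median of −2.77, had sums of 257, 184, 150 and 147 CPM in lung against 23.4, 43.3, 34.6 and 29.4 in brain. The fourth and the fifth, chr1:38441212-38723633 and chr19:56640548-56796925, held 9 peaks each with medians of −2.95 and −2.72. In every one of the 5, the lung libraries together lay above the brain libraries by several times.

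**Figure D5:**
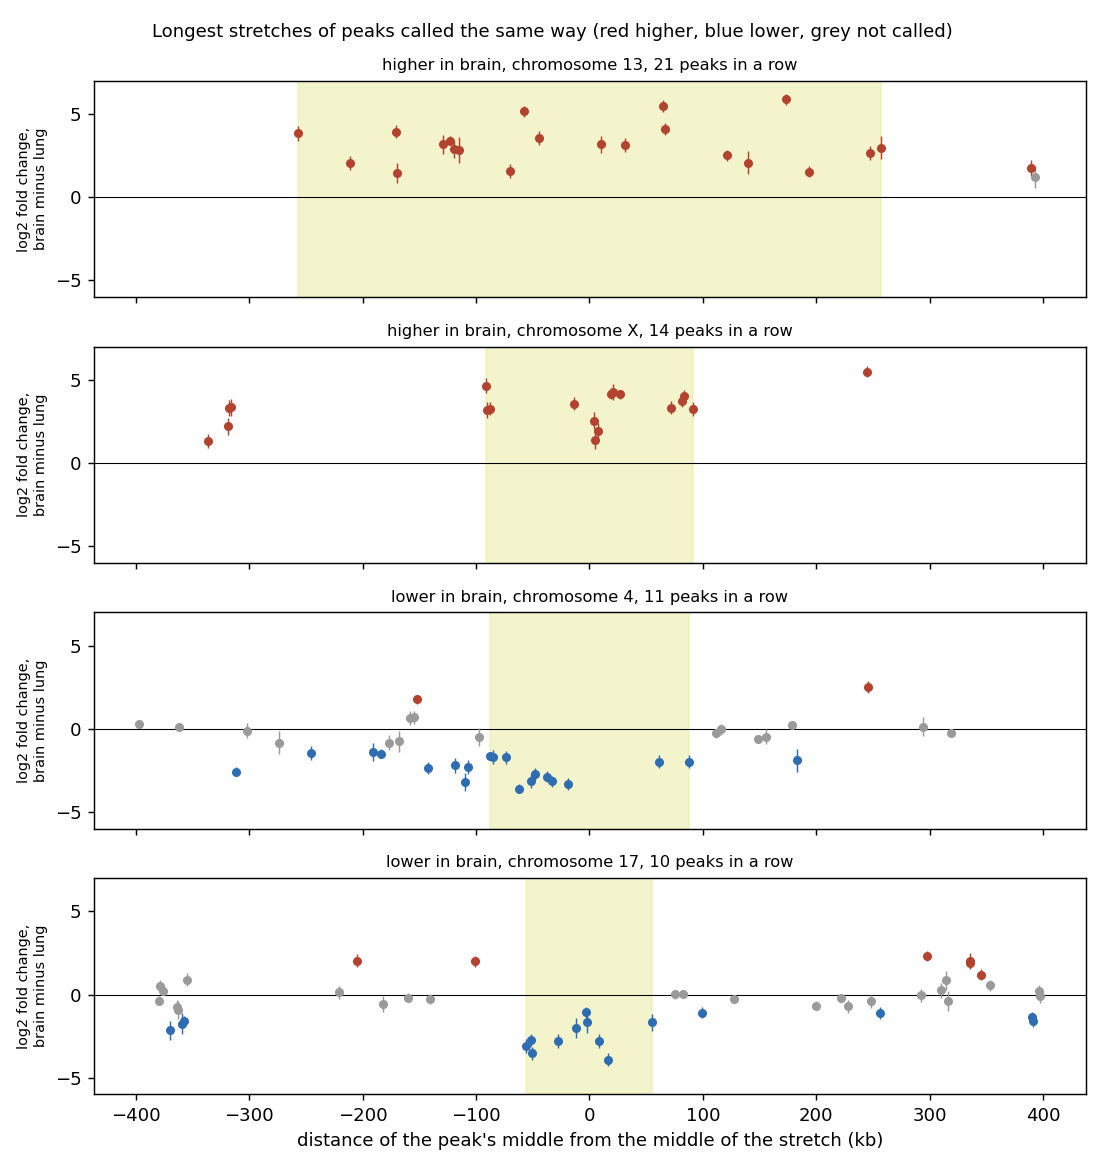
Log2 fold change of brain minus lung with its standard error for each tested peak around the middle of the longest stretches in each direction, by distance in kb, with the stretch shaded (red called higher in brain, blue called lower, grey not called). On chromosome 13 all 21 shaded peaks lie above 1, and on chromosomes 4 and 17 peaks called higher in brain also lie near the shaded peaks called lower.

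Liver endothelium, which did not enter the test, gives a further level for these peaks. With all ATAC libraries scaled together, the median peak called higher in brain had a mean of 12.8 CPM in brain, 3.35 in lung and 5.17 in the 3 liver libraries. The median peak called lower had 2.28 CPM in brain, 8.37 in lung and 5.86 in liver. Liver lay between brain and lung for 74.1% of peaks called higher and for 67.9% of those called lower, and for 23.7% of peaks not called. The calls fix brain and lung at opposite ends, so a middle place for liver follows in part from them and is given as a description.

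In the peaks with the largest folds, liver mostly lay between the tissues: in 10 of 10 on the brain side and in 9 of 10 on the lung side. Liver means were 5.51 to 32.6 CPM in the 10 on the brain side, and brain was 8.48 to 12.3 times higher than liver in each. In chr13:26792402-26793848, the means were 267 CPM in brain, 4.85 in lung and 28.3 in liver (20.3 to 42.9 by library). In the 10 on the lung side, liver means were 2.23 to 13.3 CPM, and lung was 1.81 to 25.4 times higher than liver. The smallest of these ratios belonged to chr3:122407066-122407526, with 23.4 CPM in lung, 12.9 in liver and 1.17 in brain. The largest belonged to chr5:65486133-65486941, with 56.7 CPM in lung, 2.23 in liver and 2.64 in brain. Liver thus stood between the tissues in the first and slightly below brain in the second. Brain and lung values that enter the ratios over liver also chose these peaks, so high ratios follow in part from the choice.

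Stretches showed the same spread. Summed over the 21 peaks on chromosome 13, the means were 738 CPM in brain, 48.4 in lung and 107.4 in liver. Over the 14 peaks on X they were 385, 35.3 and 50.6 CPM. In the stretch on chromosome 1, lower in brain, lung had 122 CPM, liver 65.0 and brain 18.3, and in that on chromosome 19 lung had 176, liver 48.7 and brain 35.0.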

How the data were processed

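ATAC-seq values were read counts per peak as deposited, in 1 table of 60119 peaks. Per the file headers and peak names, these are raw counts over 1 merged list, whose identifiers say that a lung library was left out of it. Per the submitters' processing notes the tools of the series include Bowtie2, SAMtools 1.10.2, Picard, MACS2 and bedtools, with builds mm9 and mm10, none tied to an assay; chromosome names occur in mm9 only. Libraries were grouped by title. The table columns for lung without a matching number entered as lung a and b. In R 4.3.3 with edgeR 4.0.16, peaks low in counts were dropped by filterByExpr, leaving 52790, the 8 libraries were scaled by TMM, and a robust quasi-likelihood model of tissue gave a common biological coefficient of variation of 0.268. CPM uses counts in tested peaks. The mean log2 CPM of a peak is edgeR's average log2 CPM. Liver means come from TMM over all ATAC libraries. Intervals use 95% of the t distribution of the moderated fit. Shares per library were compared by exact permutation over the libraries. Named peaks were, in each direction, the 10 largest folds at a mean log2 CPM of at least 3 without overlap, the 4 smallest p-values, the top peak of the 5 longest stretches, the widest called peak, and the 6 strongest peaks not called. The comparison, the rule and the alternatives were chosen with earlier results of these data known. The fit and the stretch count were tested on simulated data. Alternatives were RLE and unscaled libraries, loess offsets, other count filters, DESeq2 1.42.0, a minimum-fold test, other sets of libraries, a replicate block and thinning.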

Additional observations from a re-analysis of the deposited data

Results flagged for a closer look

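Of 82 groups of 4 libraries checked for a library far from the others, 10 had one. Chance alone gives about 1 in 20 for separate groups of normally spread values. Low counts are not spread so, and the groups share libraries. Depth was the first: brain 1 had 17956240 counts against 5003580 to 6995574 in the other brain libraries.

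Brain 2 was the low library in 3 peaks. It had 110.8 CPM at chr2:139502665-139504771 against 139.1 to 144.9 in the other brain libraries, 82.6 CPM at chr9:95305824-95308216 against 120.6 to 126.1, and 414.6 CPM at the peak on the unplaced piece of chromosome 9 against 686 to 734. Brain 3 was the high one in 2 peaks, with 60.8 CPM at chr6:36758311-36758934 against 42.5 to 43.0 and 2179 CPM at chr17:39984387-39985734 against 1810 to 1872.

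In lung, lung 1 was low at chr6:36758311-36758934 (0.359 CPM against 1.42 to 1.49) and high at chr6:118015956-118016588 (63.9 CPM against 43.5 to 46.1). The first of these rests on only 2, 10, 2 and 2 counts in lung 1, 2, a and b. Lung b had 0 CPM at chr12:40753450-40754213 against 2.13 to 2.37, and 16.4 CPM at chr3:122407066-122407526 against 23.9 to 24.2. At the chromosome 12 peak, the counts were 12, 16, 3 and 0 in lung 1, 2, a and b.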

How the results depend on the processing

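The counts of 9187 peaks higher and 7727 lower stayed within 1.5 times in all but 3 alternatives. Requiring 20 counts in at least 4 libraries gave 5120 lower, with 38462 peaks tested. The minimum-fold test called 4985 higher and 3565 lower. Thinning to the shallowest library gave 3985 higher and 2999 lower, with 23186 peaks tested, 34 and 18 stretches in place of 157 and 71, and 18.5% of X peaks called higher in place of 27.9%. With 1 library left out at a time, 8611 to 9425 peaks were higher and 6716 to 9175 lower. Brain against lung a and b alone gave 8366 and 5240. DESeq2 called 8918 and 7842.

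With unscaled library sizes the median log2 fold change of all peaks was −0.16, and calls numbered 7447 and 8273. No peak called in the main test was called the other way in any alternative, though all of these reuse libraries of the main test. Of the values for the 37 named peaks, 782 stayed as they were, called or not called, 16 lost a call and 15 gained one. The losses lay in the widest called peak of each direction and in chr17:31570819-31571584. The gains lay in the pair on chromosome 2 near the threshold. Many named peaks were chosen for large folds or small p-values in these data, so their kept calls are no separate support. The share of counts in the 3 sets of peaks did not change sign in any setting: without 1 library the difference of brain minus lung ran from −2.94 to −0.70 percentage points for the strongest peaks, 0.82 to 3.59 for the widest and 0.12 to 0.30 for X.

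The replicate numbers pair no samples by the labels. With a replicate block over libraries 1 and 2 of both tissues, which leaves 1 degree of freedom, 8655 peaks were higher and 6939 lower, against 8275 and 6519 on these 4 libraries without it. Deviations of the same number correlated at 0.12 and 0.08, against −0.09 to 0.05 for the other pairs of a brain library with lung 1 or 2. Whether this reflects a pairing was not tested. Lung a and b had a median of 8 counts per tested peak each, which limits single-peak statements at low levels.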
